A study of Mus musculus with 24 samples.

Results

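Protein phosphatase 2A (PP2A) subunits were followed in amygdala and hippocampus of mice selected on their freezing after contextual fear conditioning, which scores how long a mouse stays motionless in a chamber where it was shocked. The 10 genes were Ppp2ca, Ppp2cb, Ppp2r1a, Ppp2r2a, Ppp2r2b, Ppp2r2c, Ppp2r5a, Ppp2r5b, Ppp2r5c and Ppp2r5e. Every probe set (a set of array probes that reads a transcript or part of one) whose only annotated gene symbol was one of these was taken, which gave 33 of the 45037 probe sets tested and 10 of 18193 named genes. All 33 are accounted for, and none was removed for low signal. The family was chosen by the signal of 1 probe set of Ppp2r5c, which differed between the lines in hippocampus, so the hippocampus line values are given as a description, and no test is read from them.

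The 24 Affymetrix arrays carried total RNA of male mice and formed 4 groups of 6. These were amygdala of line 25, labelled high freezing, amygdala of line 24, labelled low freezing, hippocampus of line 25 and hippocampus of line 24. No treatment is named for any group, and the labels give neither strain of origin nor age, nor whether RNA was pooled or whether an array number marks the same mouse in both tissues. Each line is a single breeding line, so p-values measure the spread between arrays and a difference between lines cannot be told apart from drift.

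PP2A is a serine/threonine phosphatase built from a scaffold (A) subunit, a catalytic (C) subunit and 1 of several regulatory (B) subunits. The scaffold holds the catalytic subunit, and the regulatory subunit sets which substrates the enzyme meets and where in the cell it works. In neurons PP2A is known for removing phosphate from tau and for opposing kinases of synaptic plasticity such as CaMKII and protein kinase A. Ppp2ca and Ppp2cb encode the catalytic subunits and Ppp2r1a the main scaffold. Ppp2r2a, Ppp2r2b and Ppp2r2c encode B (B55) subunits, and Ppp2r5a, Ppp2r5b, Ppp2r5c and Ppp2r5e encode B' (B56) subunits.

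Promoter sequences are shown as background for 3 of the genes that had one, Ppp2r5c, Ppp2ca and Ppp2r5b. RefSeq's table for GRCm38.p6 held 6 of the 10 genes in 7 windows of 250 bases before an annotated start, and Ppp2r5c alone had more than 1, with starts 38275 bases apart. It held no window for Ppp2cb, Ppp2r2a, Ppp2r2b and Ppp2r5e, so none could be shown for them, Ppp2r2b with its tissue difference included. The arrays' probes could not be placed on transcripts from these starts, since no probe sequences were used here. No start is therefore shown to lie behind a signal. Capitals mark GC boxes, spelled GGGCGG and on the other strand CCGCCC. They also mark CCAAT boxes, which read ATTGG on the other strand, and the cyclic AMP response element TGACGTCA, the same on both strands.
Ppp2r5c first start, chr12:110447272-110447521, plus strand: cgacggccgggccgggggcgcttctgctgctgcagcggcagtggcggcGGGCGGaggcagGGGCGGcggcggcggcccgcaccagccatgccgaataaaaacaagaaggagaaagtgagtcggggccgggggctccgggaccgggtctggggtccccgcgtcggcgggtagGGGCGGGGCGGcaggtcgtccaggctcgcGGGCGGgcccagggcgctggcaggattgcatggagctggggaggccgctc
Ppp2r5c second start, chr12:110485547-110485796, plus strand: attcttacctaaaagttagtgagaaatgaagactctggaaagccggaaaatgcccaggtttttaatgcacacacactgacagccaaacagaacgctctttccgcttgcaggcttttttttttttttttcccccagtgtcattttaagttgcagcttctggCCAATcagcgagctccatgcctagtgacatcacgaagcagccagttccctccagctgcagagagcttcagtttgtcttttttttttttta
Ppp2ca, chr11:52098574-52098823, plus strand: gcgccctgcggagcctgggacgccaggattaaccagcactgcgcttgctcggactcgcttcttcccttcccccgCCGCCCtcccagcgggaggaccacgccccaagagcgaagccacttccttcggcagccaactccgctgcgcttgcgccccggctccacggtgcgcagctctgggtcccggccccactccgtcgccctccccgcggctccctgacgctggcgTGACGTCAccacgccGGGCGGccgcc
Ppp2r5b, chr19:6235841-6236090, minus strand: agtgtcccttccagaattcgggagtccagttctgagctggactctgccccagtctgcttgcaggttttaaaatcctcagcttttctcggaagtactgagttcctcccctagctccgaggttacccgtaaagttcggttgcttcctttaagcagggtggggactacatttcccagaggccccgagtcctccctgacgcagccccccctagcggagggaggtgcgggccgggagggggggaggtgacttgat

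The windows at the 2 starts of Ppp2r5c differed in make-up. The first held 31 CpG dinucleotides, 5 GC boxes (2 of them share 1 base) and no CCAAT box, and the second held 5 CpG dinucleotides, no GC box and 1 CCAAT box. The median over all 32851 promoters of the table was 6 CpG dinucleotides. The Ppp2ca window held 30 CpG dinucleotides, 2 GC boxes and 1 cyclic AMP response element, and that of Ppp2r5b held 10 CpG dinucleotides and none of the motifs. Over the 7 windows a GC box was found in 5, a CCAAT box in 3 and the cyclic AMP response element in 1, against 32.7%, 33.8% and 1.55% of all promoters of the same length. A match is a description of the letters and not a binding site.

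Signals below are linear intensities, given as the lowest to the highest array of a group with the median in brackets. Differences are on the scale log2(signal + 16), which understates changes of dim probe sets, and are amygdala minus hippocampus or high minus low line. Calls are those of limma with p-values adjusted by Benjamini-Hochberg over all 45037 probe sets, at a threshold of 0.05. Signals of different probe sets are not levels that can be compared, because probes bind with different strength.

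All arrays were scaled alike, with medians of 43.3 to 55.6, and correlated at 0.936 to 0.979 with no identical pair. The labelled tissues showed in their markers. Of 14 hippocampus markers 13 were lower in amygdala and Wfs1 was higher, with Dsp, Lct and Tdo2 below the array median on every amygdala array, and 10 of 13 amygdala markers were higher and 1 lower. Markers of striatum were likewise higher in amygdala, 12 of 12, with a summed signal of 5448 to 9096 in amygdala of the high line and 5773 to 9845 in that of the low line, against 1457 to 1601 and 1423 to 1727 in hippocampus of the same lines, where Drd2 and Ido1 lay below the median on every array. Among other cell types, oligodendrocyte markers were lower in 7 of 9, meninges and choroid plexus markers in 7 of 12, astrocyte markers higher in 2 and lower in 5 of 9, neuron markers higher in 4 and lower in 6 of 12, microglia markers higher in 3 of 10, and endothelial markers lower in 1 of 7. The 18S ribosomal RNA 5' control read 324 to 1525 and 295 to 1148 in amygdala of the high and low line, against 3600 to 5799.9 and 5859 to 7093 in hippocampus, so it did not overlap between tissues, nor between the lines in hippocampus. The part of marker content and of the 18S control in the results below was not tested. In whole tissue, fewer cells of a type and less RNA per cell cannot be told apart.

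Between the tissues, Ppp2r2b and Ppp2r5b were higher in amygdala by about 1.3-fold, and Ppp2ca and the brightest probe set of Ppp2r5c were lower by 1.07-fold to 1.22-fold. Ppp2r5e was higher by 2 of its 5 probe sets. The scaffold Ppp2r1a, Ppp2cb, Ppp2r2a, Ppp2r2c and Ppp2r5a had no probe set past the threshold. In all, 8 of 33 probe sets passed (24.2%), 5 higher and 3 lower in amygdala. Over all probe sets 25.8% passed, 12.9% higher and 12.9% lower, so the members' share lay near the background. The members' median difference was -0.04, with a median absolute difference of 0.096, and over all probe sets these were -0.02 and 0.155. Taking the brightest probe set of each gene, 4 of 10 were called, beside 30.1% of all named genes, a share not matched for signal.

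**Figure D1:**
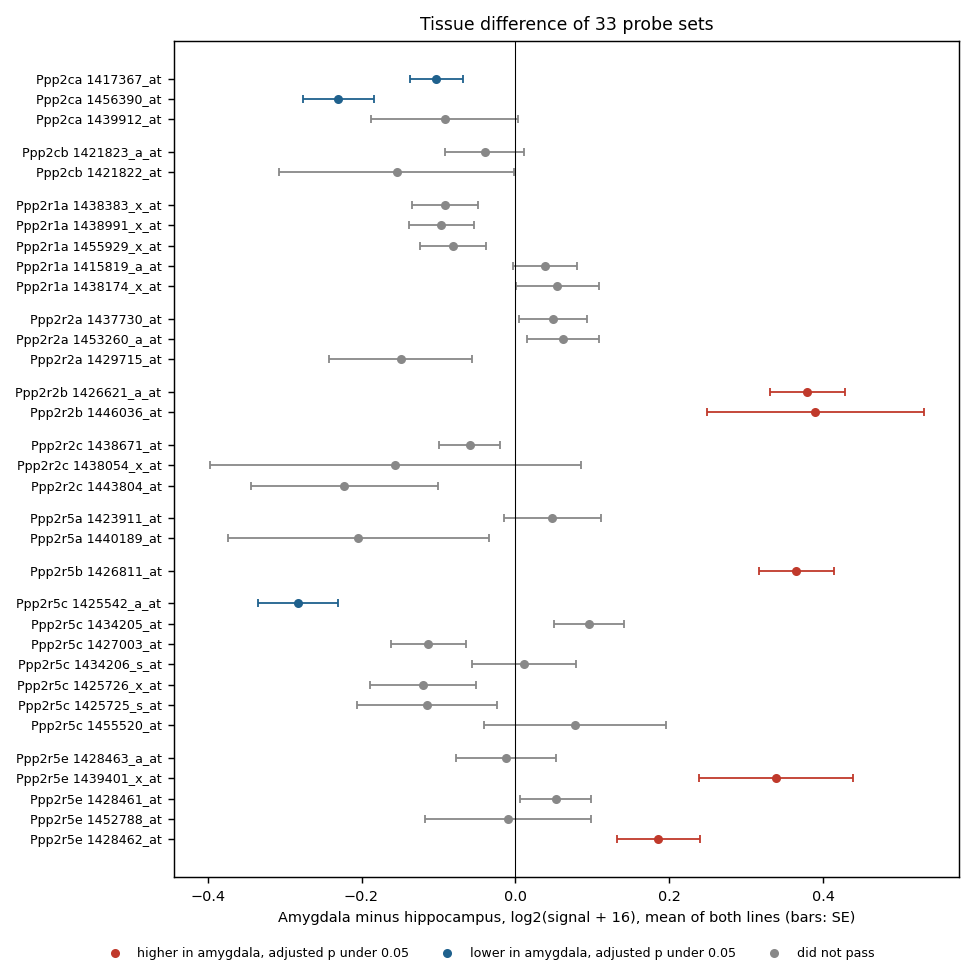
Amygdala minus hippocampus difference of the 33 probe sets, averaged over both lines, in log2(signal + 16), with bars of 1 SE from the fit of 24 arrays. Probe sets run down the page by gene and from bright to dim within a gene; red marks the 5 called higher in amygdala, blue the 3 called lower, and grey the 25 that did not pass.

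The catalytic subunit Ppp2ca was read by 3 probe sets. Its brightest, 1417367_at, had signals of 3127 to 3404 (3230) in high-line amygdala and 3026 to 3306 (3234) in low-line amygdala, against 3307 to 3517 (3497) in high-line hippocampus and 3353 to 3667 (3445) in low-line hippocampus. The tissues did not overlap in the low line and overlapped in the high line. The difference was -0.10 ± 0.035 (SE, 12 arrays per tissue), with a limma adjusted p of 0.0306. It had the smallest within-group SD of the 33 probe sets, 0.042, below all but 0.5% of the 1000 probe sets nearest in signal. The call did not hold when arrays were quantile normalized, where the difference was -0.04 with an adjusted p of 0.462. It was also lost with each array centred on its median (0.131) and without both amygdala arrays 7 and 8 (0.0690), which had the lowest actin 5' to 3' ratios of all arrays, 0.301 and 0.339. Leaving out 1 array lost it in 3 of 24 cases, namely amygdala array 8 of the high line (0.0517), amygdala array 1 of the low line (0.0548) and hippocampus array 6 of the low line (0.0536).

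The next Ppp2ca probe set, 1456390_at, read 648 to 851 (765) in high-line amygdala and 667 to 788 (714) in low-line amygdala, against 864 to 946 (888) in high-line hippocampus and 756 to 900 (845) in low-line hippocampus. Amygdala was below hippocampus on every array of the high line, and the tissues overlapped in the low line. Its difference of -0.23 ± 0.046 had an adjusted p of 0.000501 and was called in each line, at -0.25 in the high line (adjusted p = 0.00896, and 0.104 with arrays centred on their medians) and -0.21 in the low line (0.0300). The dimmest of the gene, 1439912_at, did not pass (-0.09, adjusted p = 0.533). All 3 probe sets had negative differences, with sizes of 1.07-fold, 1.17-fold and 1.07-fold.

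Ppp2cb, the second catalytic gene, read 593 to 712 (698) in high-line amygdala and 661 to 852 (750) in low-line amygdala, against 666 to 813 (717) in high-line hippocampus and 663 to 771 (745) in low-line hippocampus by 1421823_a_at. All groups overlapped, and the tissue difference of -0.04 ± 0.051 did not pass (adjusted p = 0.624). Its other probe set, 1421822_at, lay below the array median on all 24 arrays and did not pass either (-0.15, adjusted p = 0.511).

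The scaffold Ppp2r1a had the brightest signals of the family. By 1438383_x_at it read 7285 to 8043 (7760) in high-line amygdala and 6418 to 8005 (7379) in low-line amygdala, against 7256 to 8059 (7880) in high-line hippocampus and 7659 to 8554 (8404) in low-line hippocampus. Every pair of groups next to each other in level overlapped. The tissue difference was -0.09 ± 0.043 (adjusted p = 0.123), and the 5 probe sets ran from -0.10 to 0.05 with none called. Within the low line 1438991_x_at passed narrowly, at -0.18 (adjusted p = 0.0497). Of the 5 probe sets 4 have the suffix _x_at, with which the maker marks probes that can also match other sequences, so a paralog could add to these signals.

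**Figure D2:**
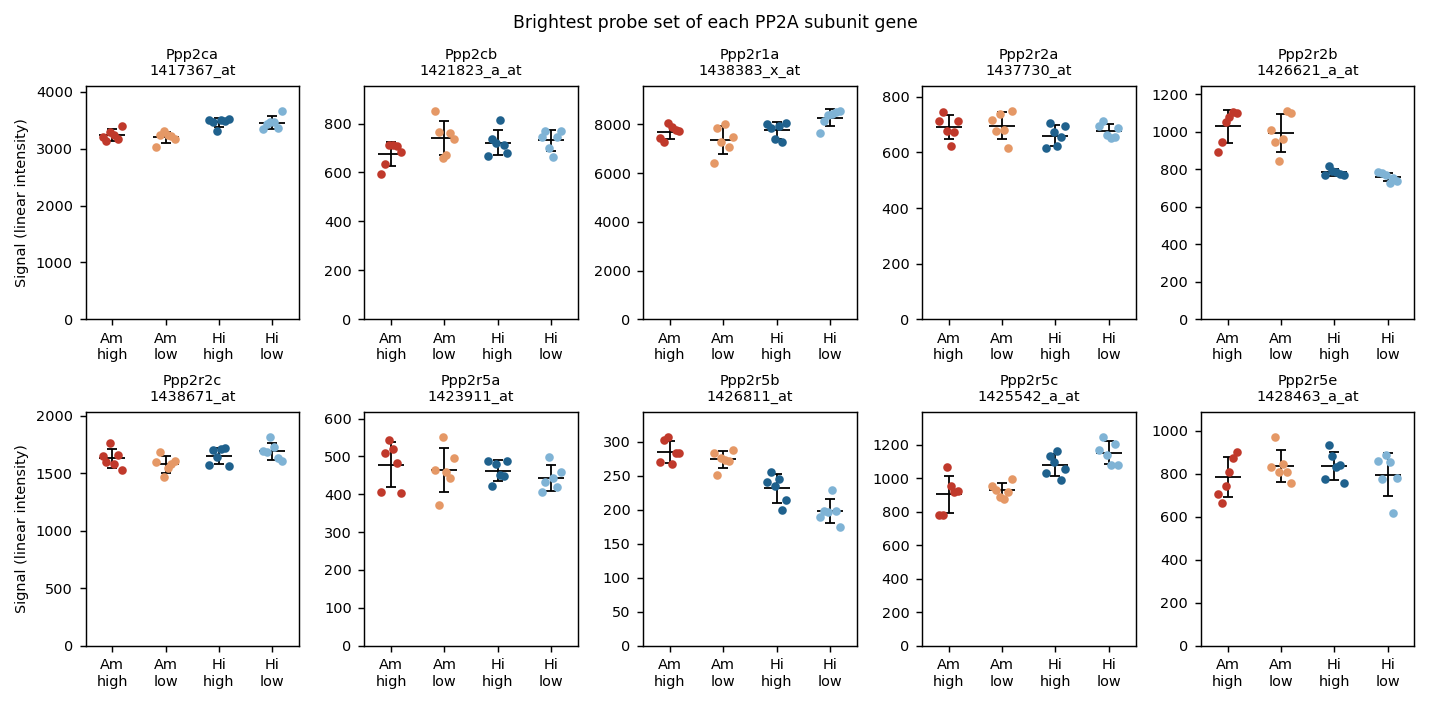
Linear signal of the brightest probe set of each of the 10 genes, with 1 point per array, a line for the mean and bars of 1 SD; every axis starts at 0. Groups from left to right are amygdala high and low line (Am) and hippocampus high and low line (Hi), 6 arrays each; Ppp2r2b is the 1 gene in which all 12 amygdala arrays lie above all 12 hippocampus arrays.

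Among the B subunits Ppp2r2b stood apart between tissues. This subunit is abundant in brain, and a repeat expansion in its human counterpart causes a spinocerebellar ataxia. By 1426621_a_at it read 893 to 1105 (1068) in high-line amygdala and 845 to 1112 (986) in low-line amygdala, against 768 to 819 (781) in high-line hippocampus and 728 to 784 (760) in low-line hippocampus. It was the only one of the 33 probe sets in which no amygdala array overlapped any hippocampus array, a pattern shown by 4.91% of all probe sets. The difference was 0.38 ± 0.049, or 1.30-fold (adjusted p = 1.75e-06), and it was 0.38 within each line as well (adjusted p = 0.000294 in the high and 0.000336 in the low line).

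The dimmer Ppp2r2b probe set, 1446036_at, gave a like difference of 0.39 with a wider error (SE 0.14, adjusted p = 0.0437). It read 46.3 to 63.7 (57.3) in high-line amygdala and 35.6 to 54.0 (44.7) in low-line amygdala, against 23.5 to 65.0 (43.6) in high-line hippocampus and 7.00 to 48.4 (30.7) in low-line hippocampus. It lay below the array median on 13 of 24 arrays, and its groups overlapped. Its call was lost in 18 of the 33 alternative settings, single arrays left out among them, with adjusted p up to 0.0962.

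For Ppp2r2a, a widely expressed B subunit, 1437730_at read 622 to 746 (694) in high-line amygdala and 617 to 749 (698) in low-line amygdala, against 616 to 705 (663) in high-line hippocampus and 651 to 712 (675) in low-line hippocampus. The groups overlapped throughout, and the difference of 0.05 ± 0.044 did not pass (adjusted p = 0.461). Of its other probe sets, 1453260_a_at did not overlap between the tissues in the low line (0.14) but was not called there. The dimmest, 1429715_at, had the opposite sign and did not pass (-0.15, adjusted p = 0.265). Its difference was -0.35 in the high line (adjusted p = 0.0656) and 0.05 in the low line (0.874). Ppp2r2c, a B subunit found mainly in brain, read 1525 to 1760 (1624) in high-line amygdala and 1463 to 1686 (1588) in low-line amygdala, against 1560 to 1717 (1672) in high-line hippocampus and 1603 to 1814 (1687) in low-line hippocampus by 1438671_at. These groups also overlapped, with a difference of -0.06 ± 0.040 (adjusted p = 0.301).

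The dimmer Ppp2r2c probe set 1438054_x_at was the most variable of the family, and by its suffix _x_at its probes can also match other sequences. Its within-group SD was 0.626, above 99.7% of the 1000 probe sets nearest in signal, and its signals within low-line amygdala alone ran from 36.9 to 208. At this spread its tissue difference of -0.16 ± 0.24 was smaller than its error (adjusted p = 0.691).

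Of the B' subunits, Ppp2r5b had the largest tissue difference among the brightest probe sets. Its single probe set, 1426811_at, read 267 to 307 (284) in high-line amygdala and 251 to 288 (275) in low-line amygdala, against 199 to 256 (238) in high-line hippocampus and 174 to 229 (198) in low-line hippocampus. Within each line no amygdala array overlapped a hippocampus array. The difference was 0.37 ± 0.049 (adjusted p = 3.02e-06), with 0.29 in the high line (adjusted p = 0.00426) and 0.44 in the low line (adjusted p = 5.01e-05). In order of level the groups were high-line amygdala, low-line amygdala, high-line hippocampus and low-line hippocampus, and each overlapped the next.

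Ppp2r5a, a further B' subunit, read 404 to 544 (496) in high-line amygdala and 372 to 551 (461) in low-line amygdala, against 421 to 488 (465) in high-line hippocampus and 406 to 500 (438) in low-line hippocampus by 1423911_at. The 4 groups overlapped, and the difference of 0.05 ± 0.063 did not pass (adjusted p = 0.633). Its dim probe set 1440189_at, below the median on all 24 arrays, did not pass either (-0.20, adjusted p = 0.419).

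The B' gene Ppp2r5e gave different answers by probe set. Its brightest, 1428463_a_at, read 666 to 904 (776) in high-line amygdala and 756 to 971 (819) in low-line amygdala, against 759 to 934 (836) in high-line hippocampus and 616 to 890 (818) in low-line hippocampus. These groups overlapped, with a difference of -0.01 ± 0.065 (adjusted p = 0.921). By 1439401_x_at the gene was higher in amygdala by 0.34 ± 0.10 (adjusted p = 0.0142), with signals of 365 to 498 (425) in high-line amygdala and 273 to 511 (390) in low-line amygdala, against 248 to 343 (289) in high-line hippocampus and 276 to 433 (362) in low-line hippocampus.

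The tissues did not overlap in the high line, where the difference by 1439401_x_at was 0.54 (adjusted p = 0.00836), and they overlapped in the low line, at 0.14 (0.642). The difference between those values, 0.41 ± 0.20, did not pass (adjusted p = 0.709). The suffix _x_at of 1439401_x_at marks probes that can also match other sequences, which could add to its signal. The within-group SD of 1439401_x_at, 0.251, was above that of 95.8% of the 1000 probe sets nearest in signal. The dimmest probe set of the gene, 1428462_at, was higher in amygdala by 0.19 ± 0.054 (adjusted p = 0.0121), and the other 2 did not pass. Their annotation does not tell which transcripts of Ppp2r5e each set reads.

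Ppp2r5c, the B' subunit from which the family was drawn, was read by 7 probe sets that did not behave alike between tissues. The brightest, 1425542_a_at, read 780 to 1071 (921) in high-line amygdala and 879 to 998 (924) in low-line amygdala, against 991 to 1163 (1077) in high-line hippocampus and 1079 to 1247 (1156) in low-line hippocampus. Amygdala arrays lay below hippocampus arrays without overlap in the low line and with overlap in the high line. The difference was -0.28 ± 0.052, or 1.22-fold lower (adjusted p = 0.000193), at -0.26 in the high line (adjusted p = 0.0157, and 0.0858 with arrays centred on their medians) and -0.31 in the low line (adjusted p = 0.00483).

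The second brightest, 1434205_at, had the opposite sign and did not pass. It read 601 to 694 (609) in high-line amygdala and 542 to 674 (614) in low-line amygdala, against 568 to 654 (601) in high-line hippocampus and 532 to 591 (539) in low-line hippocampus, a difference of 0.10 ± 0.045 (adjusted p = 0.128). The third, 1427003_at, read 517 to 574 (556) in high-line amygdala and 453 to 596 (568) in low-line amygdala, against 503 to 617 (586) in high-line hippocampus and 569 to 668 (631) in low-line hippocampus, a difference of -0.11 ± 0.049 (adjusted p = 0.0943). For 1434205_at high-line amygdala did not overlap low-line hippocampus, while the tissues overlapped within each line, and for 1427003_at every pair of groups overlapped.

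The gap between the brightest and second brightest probe set of Ppp2r5c on the same array is given as a description with no test, since the pair was picked after the tissue differences of all 7 had been seen. In the high line the gap averaged 0.51 ± 0.21 in amygdala and 0.82 ± 0.14 in hippocampus (log2, SD, n = 6 each), and the arrays of the tissues overlapped. In the low line it averaged 0.60 ± 0.12 in amygdala and 1.04 ± 0.13 in hippocampus (n = 6 each), and they did not overlap. The differences in mean gap, amygdala minus hippocampus, were -0.31 in the high and -0.44 in the low line. A gap within an array does not show which of its probe sets changed.

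The next 3 probe sets in signal did not pass between tissues. By 1434206_s_at the signals were 136 to 176 (165) in high-line amygdala and 137 to 190 (172) in low-line amygdala, against 127 to 193 (157) in high-line hippocampus and 138 to 187 (167) in low-line hippocampus (0.01, adjusted p = 0.933). By 1425726_x_at they were 104 to 138 (123) and 108 to 134 (121) in high- and low-line amygdala, against 106 to 158 (133) and 116 to 149 (139) in high- and low-line hippocampus (-0.12, adjusted p = 0.221). By 1425725_s_at they were 41.5 to 92.2 (75.9) and 61.1 to 103 (78.0) in high- and low-line amygdala, against 69.3 to 97.2 (81.3) and 71.8 to 103 (76.6) in high- and low-line hippocampus (-0.12, adjusted p = 0.397). The groups of each overlapped. The suffix _x_at of 1425726_x_at marks probes that can also match other sequences, which could add to its signal.

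The dimmest probe set, 1455520_at, is the one whose hippocampus values chose the family. It read 20.6 to 35.5 (32.7) in high-line amygdala and 6.61 to 38.2 (30.6) in low-line amygdala, against 8.33 to 21.3 (12.6) in high-line hippocampus and 32.6 to 56.6 (41.2) in low-line hippocampus. In hippocampus every high-line array was below every low-line array, and in amygdala the lines overlapped. The signal was below the array median on 23 of 24 arrays, and 38.7% of all probe sets had a lower mean. In order of level the groups were low-line hippocampus, high-line amygdala, low-line amygdala and high-line hippocampus, each overlapping the next.

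**Figure D3:**
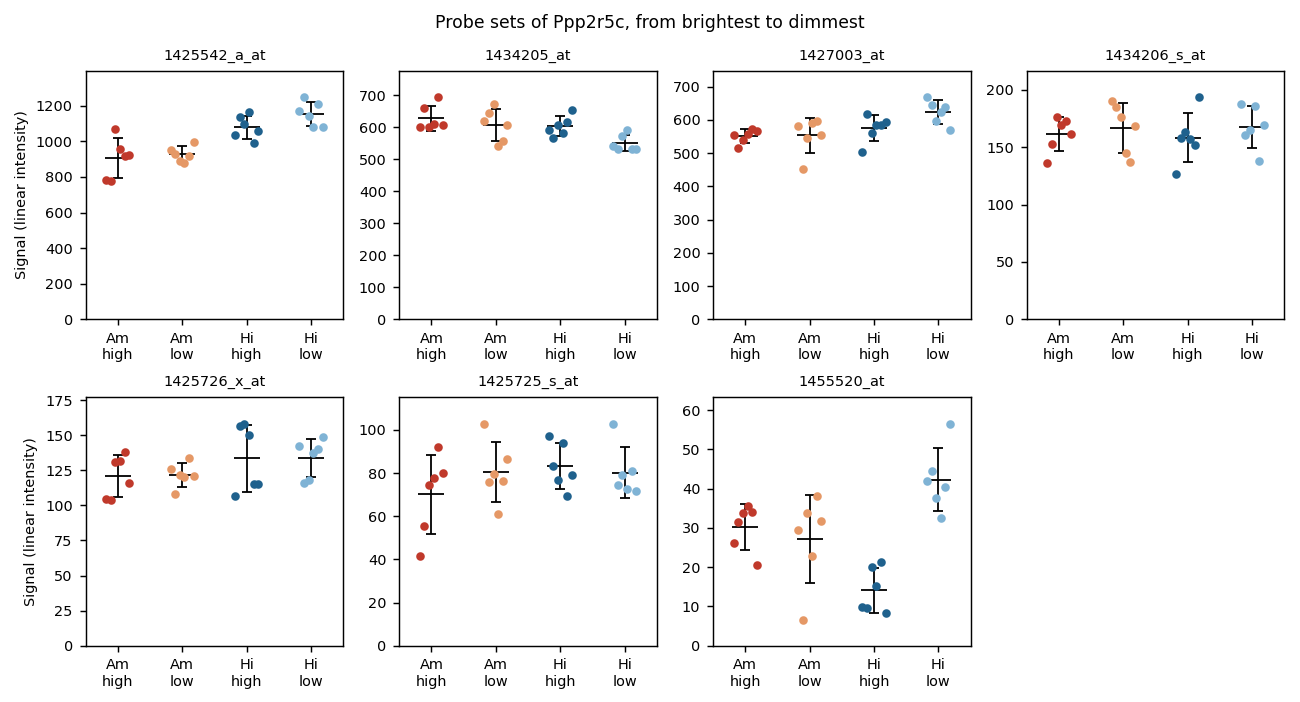
Linear signal of the 7 probe sets of Ppp2r5c, from the brightest to the dimmest, with 1 point per array, a line for the mean and bars of 1 SD; every axis starts at 0. Am is amygdala and Hi hippocampus, with the high line left of the low line and 6 arrays per group; in hippocampus the lines separate in 1455520_at (8.33 to 21.3 in the high and 32.6 to 56.6 in the low line) and overlap in the other 6.

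As a description, the hippocampus line difference of 1455520_at was -0.97 (SE 0.13), and those of the other 6 probe sets of Ppp2r5c lay between -0.12 and 0.13. Averaged over lines its tissue difference was 0.08, made of 0.63 in the high line and -0.48 in the low line. Each of these values rests on the hippocampus arrays of its own line, which took part in choosing the probe set. The 18S control also separated these hippocampus lines, and its part in the difference cannot be told apart from that of the line. Among all 33 probe sets 1 was called between the hippocampus lines, beside 0.0222% of all probe sets, and 1 did not overlap, beside 0.637%. These counts follow from the way the family was picked. In hippocampus the next differences in size were 0.41 for Ppp2r2b 1446036_at, -0.35 for Ppp2r5a 1440189_at and 0.31 for Ppp2cb 1421822_at, which are also dim, and -0.28 for Ppp2r5e 1439401_x_at.

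In amygdala, whose arrays played no part in the choice, 1455520_at differed between the lines by 0.14 ± 0.19 (6 arrays per line, limma adjusted p = 0.921), opposite in sign to the hippocampus value. The other 6 probe sets of Ppp2r5c ran from -0.18 to 0.05, with adjusted p of 0.869 or more. The gap between 1455520_at and the brightest probe set on the same array averaged -4.32 ± 0.22 in high-line amygdala and -4.50 ± 0.46 in low-line amygdala (log2, SD, n = 6 each). The difference of 0.19 did not pass an exact permutation test (two-sided p = 0.457, 924 splits). Without low-line amygdala array 2, which had the lowest signal, it was 0.0119 (exact p = 0.920). In hippocampus the gap was -5.21 ± 0.30 in the high line and -4.34 ± 0.21 in the low line, given as a description.

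Across the whole family no line difference was found in amygdala. By limma 0 of 33 probe sets were called, beside 0.00222% of all probe sets, and 2 had an unadjusted p under 0.05, beside 6.54%. These were Ppp2ca 1439912_at (0.31, adjusted p = 0.688) and Ppp2r2b 1446036_at (0.21, adjusted p = 0.762). No probe set had lines without overlap, beside 0.402% of all. The members' differences ran from -0.18 to 0.42 with a median of 0.02, and the median absolute difference was 0.061, against 0.099 over all probe sets.

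The brightest probe set of each gene gave line differences of -0.13 to 0.07 in amygdala. Ppp2ca, Ppp2r2b, Ppp2r2c, Ppp2r5a, Ppp2r5b and Ppp2r1a had positive values of 0.02 to 0.07, and Ppp2cb (-0.13), Ppp2r5e (-0.10), Ppp2r5c (-0.04) and Ppp2r2a (-0.01) negative ones, with adjusted p of 0.825 or more. Leaving aside 1455520_at, which is no test here, the line difference was not found to differ between the tissues for any member. The fit of the interaction called 0 of 33 probe sets and 0% of all 45037, with 2 and 7.08% at an unadjusted p under 0.05. These 2 were Ppp2r2a 1429715_at (-0.40, limma adjusted p = 0.688) and 1455520_at. For 1455520_at the interaction was 1.11 ± 0.24 (unadjusted p = 9.78e-05, adjusted p = 0.284). It includes the hippocampus values that chose the probe set, so neither a call nor its absence is a test.

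**Figure D4:**
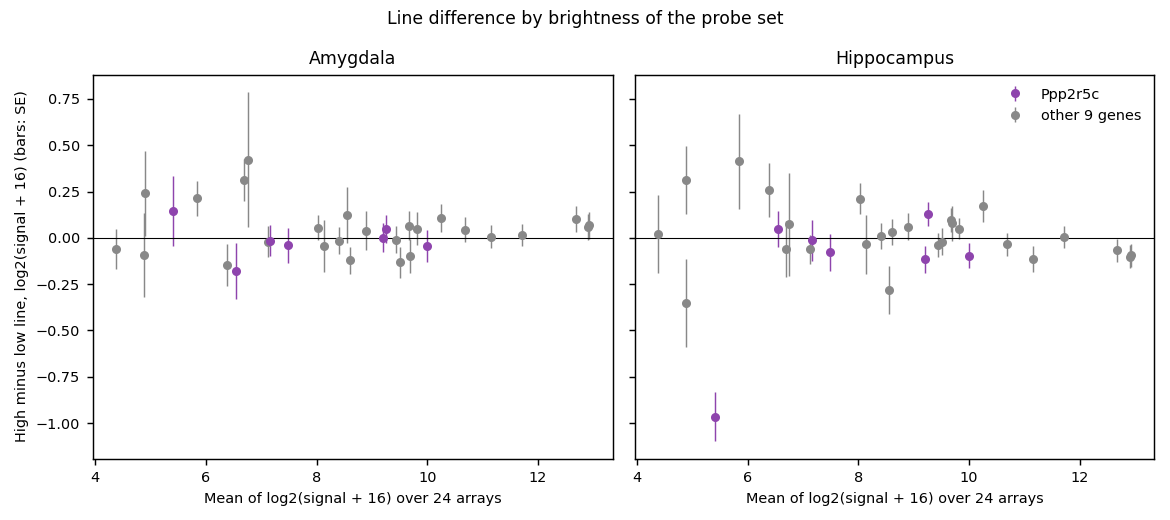
High minus low line difference of the 33 probe sets in amygdala (left) and hippocampus (right), in log2(signal + 16) with bars of 1 SE, against the mean log2(signal + 16) over 24 arrays. Ppp2r5c probe sets are purple and the other 9 genes grey; above a mean of about 8 the differences lie within -0.28 and 0.21, and 1455520_at is the lowest point in hippocampus.

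Bright and dim probe sets differed in how closely their arrays agreed. The 21 probe sets above the 80th percentile of signal had within-group SDs with a median of 0.093, and their line differences were at most 0.13 in size in amygdala and 0.28 in hippocampus. For the 12 at or below it the median SD was 0.268, with line differences of up to 0.42 in amygdala. In hippocampus the largest was the 0.97 of 1455520_at, the value that chose the family, and the next was 0.41, for Ppp2r2b 1446036_at. The median absolute line differences of the bright and dim sets were 0.050 and 0.145 in amygdala. In hippocampus they were 0.078 and 0.076, so there only the largest values differed. The SD of 1455520_at, 0.298, was below 0.387, the median of the 1000 probe sets nearest to it in signal. That SD includes the hippocampus arrays whose line difference chose the probe set. Such a choice favours a small SD, so the value is a description only. Of the 33, Ppp2cb 1421822_at, Ppp2r2c 1443804_at and Ppp2r5a 1440189_at were below the array median on all 24 arrays.

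Within single lines, 6 of 33 probe sets passed between the tissues in the high line, beside 19.1% of all probe sets, and 5 in the low line, beside 13.5%. Those called in both were Ppp2ca 1456390_at, Ppp2r2b 1426621_a_at, Ppp2r5b 1426811_at and Ppp2r5c 1425542_a_at. The high line added Ppp2r5e 1439401_x_at, and the low line added Ppp2r1a 1438991_x_at. The sixth of the high line was Ppp2r5c 1455520_at, whose call rests on the hippocampus values that chose the family and is no test. Both lower calls of the high line were lost with each array centred on its median, Ppp2ca 1456390_at at -0.19 (adjusted p = 0.104) and Ppp2r5c 1425542_a_at at -0.20 (0.0858). The call of 1425542_a_at there was lost without amygdala arrays 7 and 8 too (-0.16, adjusted p = 0.148). Tissues did not overlap in 4 probe sets in the high line (10.6% of all) and in 5 in the low line (8.86%).

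Other genes with the profile most like that of a Ppp2r5c probe set were found by the root mean square (RMS) difference of log2(signal + 16) over the 24 arrays, each probe set centred on its own mean. For 1425542_a_at these were Prnp (0.0781), Hnrnpu (0.0812), Ccni (0.0832), Atp6v1c1 (0.0903) and Camsap2 (0.0904) among 32574 probe sets of other genes. Their tissue differences were -0.22 to -0.26, near its own, which follows from picking the closest profiles over the same arrays. The other probe sets of Ppp2r5c were farther, at 0.148 to 0.461. They were not picked for closeness, so this is no test of how far they differ. For 1455520_at the nearest were Ccl25 (0.296), Nudt6 (0.307), Hipk2 (0.326), Sdccag8 (0.328) and B4galnt2 (0.328), while its own variation around its mean was 0.441 and the other Ppp2r5c probe sets lay at 0.406 to 0.511. The likeness to 1455520_at was therefore weak, including that of probe sets for its own gene.

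The wider PP2A pathway was read from 75 genes in 6 lists, by the brightest probe set of each. Of these 23 were higher in amygdala, 16 lower and 36 not called, so that 52% were called, beside 30.1% of all named genes. Of the 75 only Cip2a, Mastl and Ppef2 lay below the array median on every array. The shares were not matched for signal, so whether 52% exceeds the share among equally bright genes was not tested. Among the 9 other subunits Ppp2r5d (0.55), a B' subunit, Strn (0.24), a striatin, and Ppp2r2d (0.20), a B subunit, were higher. The second scaffold Ppp2r1b (-0.32), the regulatory subunit Ppp2r3a (-0.31) and the striatin Strn4 (-0.22) were lower.

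Of 8 assembly factors 3 were higher and none lower (list median 0.16, against 0.01 for all named genes). These were Ptpa (0.61), the PP2A activator, Ppme1 (0.29), the methylesterase of the catalytic subunit, and Lcmt1 (0.12), the methyltransferase that opposes it. The list of inhibitors, which includes their kinase Mastl, had 9 measured genes. Of these Arpp19 (1.62 ± 0.053, adjusted p = 1.24e-16), which blocks PP2A with B55 once phosphorylated, Anp32b (0.15) and Bod1 (0.13) were higher and Anp32a (-0.20) was lower. The 11 measured partners of striatins gave 1 higher, Strip2 (0.44), and 4 lower, Cttnbp2 (-0.70), Stk25 (-0.39), Fgfr1op2 (-0.26) and Pdcd10 (-0.16).

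Other phosphatases of the PPP family gave 3 higher and 6 lower of 18. Higher were Ppp4r1 (0.38), Ppp5c (0.27) and Ppp1ca (0.24). The 4 lower with the largest difference were the calcineurin subunits Ppp3ca (-0.46) and Ppp3r1 (-0.43), the protein phosphatase 1 catalytic gene Ppp1cc (-0.42) and Ppp6c (-0.30). Of 20 kinases and substrates that PP2A counters, 10 were higher, led by Ppp1r1b (2.43), the DARPP-32 gene, Prkacb (1.05), Camk1 (0.99) and Mapt (0.94), which encodes tau. Camk2a (-0.87) and Camk2b (-0.36) were lower. Ppp1r1b is also on the list of striatum markers, all 12 of which were higher in amygdala.

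Between the lines in amygdala 0 of the 75 genes were called by limma, beside 0% of all named genes, and 3 had an unadjusted p under 0.05. Ptpa was 0.29 higher in the high line (adjusted p = 0.521), Stk25 differed by -0.60 (adjusted p = 0.488) and Ctnnb1 by 0.15 (adjusted p = 0.762). None of these holds after adjustment.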

How the data were processed

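Arrays were grouped by the labels' descriptions. The authors deposited 1 linear intensity per probe set and array, with no count of molecules, so that the number of arrays limits the precision; how signals were computed and tissue was handled is not given in the sources used here. The mean of each array without its highest and lowest 2% is 150. Of 45101 probe sets 64 controls were left out, and 34945 carried 1 symbol in the platform annotation. Signals were taken as log2(value + 16) and fitted with limma 3.58.1 in R 4.3.3. Tissue and interaction contrasts used the 4 group means over 24 arrays, and line contrasts the 12 arrays of a tissue. The fits were tested on simulated data. Alternatives were other pseudocounts, quantile normalization, median centring, a filter on dim probe sets, an intensity trend, a block and arrays left out. The members, lists, tests and naming rule (all members, up to 4 called genes per list and direction, the 5 most like profiles) were chosen with earlier results of these data known, so no list is independent evidence.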

Additional observations from a re-analysis of the deposited data

Results flagged for a closer look

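For the brightest probe set of each gene and every probe set of Ppp2r5c and the other called sets, 80 groups of 6 arrays were examined for an array far from the rest, and 4 held one; chance gives about 1 in 20. Ppp2ca 1417367_at read 3307 on high-line hippocampus array 9, with the other 5 arrays at 3475 to 3517. Ppp2r5c 1427003_at read 453 on low-line amygdala array 2, with the others at 546 to 596. Ppp2r5c 1425725_s_at read 103 on low-line hippocampus array 1, with the others at 71.8 to 81.0. Ppp2r5e 1428463_a_at read 616 on low-line hippocampus array 5, with the others at 775 to 890.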

How the results depend on the processing

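For the list genes, 39 were called between tissues, and 36 to 39 without single arrays. The number of member probe sets called between tissues was 8 (5 higher, 3 lower), and 6 to 9 without single arrays. It was 7 with log2(value + 1), quantile normalization or median centring, and 6 without amygdala arrays 7 and 8. It was 10 (5 higher, 5 lower) without the dimmest 40% of probe sets and also with an intensity trend. Within the high line it was 6, and 6 to 7 without single arrays, but 5 with median centring (none lower, against 2 lower) and 5 without amygdala arrays 7 and 8 (1 lower). Within the low line it was 5 (2 higher, 3 lower), and 7 with median centring (2 higher, 5 lower), where lower calls rose while those of the high line fell. It was 8 there with log2(value + 64), 8 with an intensity trend and 3 to 6 without single arrays. In amygdala no line call appeared under any alternative run. The 1 hippocampus line call, a description, was 0 with log2(value + 1), 0 without the dimmest 40% of probe sets, which removes it, 0 without hippocampus array 7 and 0 to 1 without single arrays; it was lost in 11 of 12 such cases and kept without high-line array 9, with differences of -1.03 to -0.90. The dim minus brightest gap of Ppp2r5c differed by 0.0119 to 0.267 between amygdala lines, and the brightest minus second brightest gap between tissues by -0.376 to -0.259 in the high line and -0.482 to -0.403 in the low line, without single arrays. No result changed sign. The causes of lost calls were not tested. Same-number arrays of the tissues did not deviate together. Of 12 same-number pairs 0 had deviations correlated over 0.1 (-0.061 to 0.0987), and 2 amygdala arrays fitted their own number best. A low correlation cannot show whether a number marks the same mouse, so the pairing remains unknown. With the number as a replicate block, 6 member probe sets and 34 list genes were called between tissues, and Ppp2ca 1417367_at (adjusted p = 0.10) and Ppp2r2b 1446036_at (0.0844) were lost. Dim probe sets limit what the signals can show.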
